A study of Mus musculus with 48 samples.

Results

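The comparison described here is between arcuate nucleus of HepDKO and Control mice in the light phase. It uses 12 of the series' 48 libraries, chosen by tissue and time point: 3 HepDKO and 3 Control libraries at zeitgeber time 4 (ZT4, hours after lights on) and 3 of each at ZT10. All mice were male Rev-erba/b flox/flox animals on a C57Bl6/J background, so both groups carried the floxed alleles of Nr1d1 and Nr1d2. They were kept at 27 C in 12 h of light and 12 h of dark with free access to chow. Control mice had a tail vein injection of AAV8-TBG-EGFP and HepDKO mice one of AAV8-TBG-Cre, at 6 to 10 weeks of age and 2 to 4 weeks before collection, and were 10 to 12 weeks old when tissue was taken. TBG is a hepatocyte promoter, so Cre was directed at the liver and not at the brain region sequenced. Each library pooled micropunches from 3 mice, or from 3 to 4 by another statement of the submitters, so p-values measure the spread between such pools. The deletion itself, in hepatocytes, was not measured in these libraries.

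REV-ERB alpha (Nr1d1) and REV-ERB beta (Nr1d2) are nuclear receptors that repress transcription within the circadian clock, and in liver they restrain genes of lipid synthesis. The arcuate nucleus lies at the base of the hypothalamus and holds neurons that promote feeding through AgRP and neuropeptide Y and neurons that restrain it through peptides cut from POMC. Both kinds read hormones and nutrients in blood. The question put by the design is whether loss of the receptors in hepatocytes changes RNA in this brain region while the animals are mostly at rest.

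The 12 libraries held 15994399 to 20399718 read counts. Agrp, Npy, Pomc and Cartpt, which are expressed in the arcuate nucleus, were detected in every library. Agrp lay between 12.4 and 22 CPM (read counts relative to library size, with TMM factors). Pmch, a gene of the neighbouring lateral hypothalamus, had 91.2 to 158 CPM in HepDKO and 89.2 to 121 in Control. Detection of the arcuate genes thus does not show that the micropunches held arcuate tissue only. The share of RNA from outside the arcuate nucleus was not tested. HepDKO ZT4 replicate 3 stood apart: on the first principal component, which held 23.1% of the variance, it lay at 51.0 and the other 11 libraries lay between -8.41 and -1.69. Its general neuron markers were lower than the Control mean at ZT4 by 0.25 on the log2 scale and its astrocyte markers by 0.37, against -0.050 to 0.0037 and -0.056 to 0.033 in the other HepDKO libraries. Another library went against its label, since HepDKO ZT10 replicate 3 held 1914 counts of Xist, the RNA of the inactive X chromosome of females, where the others held 0 to 5. Results are therefore given with all 12 libraries and without HepDKO ZT4 replicate 3, and that library is called replicate 3 below. In pooled bulk tissue, fewer cells of a type and less RNA per cell cannot be told apart. Short relative to long transcripts also lay 0.52 above the Control mean in replicate 3, against -0.016 to 0.12 in the other 11 libraries. The neuron and astrocyte markers have median transcript lengths of 4140 and 3890 bases, against 3340 over all genes tested. The part of transcript length in their lower levels was not tested.

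No gene passed the test of HepDKO against Control across the light phase in the 12 libraries, and of the 16 gene lists, cell type markers apart, ribosomal and mitochondrial genes had the highest medians in that fit. Of 15892 genes tested, 0 passed an adjusted p of 0.05 (0%, edgeR's quasi-likelihood test, Benjamini-Hochberg adjusted, with time point as a covariate). At an unadjusted p under 0.05 there were 1044 genes (6.57%), of which 706 were higher in HepDKO (4.44%) and 338 lower (2.13%). DESeq2 on the same counts passed 7 genes (0.044%), and 38 (0.237%) without replicate 3. In that second fit DESeq2's own filter on mean counts left many genes without an adjusted p, among them Atp5md, Timm8b, Snhg8 and Folh1. The counts of 7 and 38 thus rest on unlike sets of genes, and DESeq2 passes without replicate 3 hold for the smaller set. With that library left out, 4 of 16005 genes (0.025%) passed edgeR's test and all of them rose, among them Rpl41, Atp5md and Hnrnpa0. There were then 1079 genes at an unadjusted p under 0.05 (6.74%), 666 of them higher (4.16%) and 413 lower (2.58%). The genes of DESeq2 with 12 libraries included these 3 with Timm8b, Snhg8 and Folh1. Without HepDKO ZT10 replicate 3 alone, 0 genes passed and 1171 of 16059 had an unadjusted p under 0.05 (7.29%).

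Rpl41, a ribosomal protein gene (chromosome 10, 128548114-128549305, minus strand, GRCm38), had 229, 244 and 306 CPM in HepDKO at ZT4 and 278, 247 and 241 at ZT10. Control libraries had 207, 200 and 210 CPM at ZT4 and 224, 210 and 207 at ZT10. All 6 HepDKO libraries lay above all 6 Control libraries, an order that 64 genes showed (0.403%), and replicate 3 was the highest. The log2 fold change was 0.30 (SE 0.0627, adjusted p 0.678) with 12 libraries and 0.23 (SE 0.0357, adjusted p 0.0062) without replicate 3. Ribosomal protein genes have many near-identical pseudogene copies, so how reads were divided among them is uncertain.

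Atp5md (chromosome 19, 47083471-47090647) encodes a small membrane subunit of mitochondrial ATP synthase. HepDKO libraries had 63.5, 72.2 and 84.2 CPM at ZT4 and 79.5, 68.7 and 67.4 at ZT10, and Control libraries had 56.6, 54.3 and 53.3, then 65.2, 60.9 and 54.8. HepDKO was above Control at both times, though the lowest HepDKO library at ZT4 fell within the Control range of ZT10. The log2 fold change was 0.34 (SE 0.071, adjusted p 0.678) with 12 libraries and 0.28 (SE 0.0509, adjusted p 0.0478) without replicate 3. Hnrnpa0 (chromosome 13, 58125879-58128556, minus strand), an RNA-binding protein of the hnRNP family, had 199, 198 and 206 CPM in HepDKO at ZT4 and 215, 209 and 206 at ZT10. Control libraries had 178, 173 and 174 CPM at ZT4 and 196, 193 and 175 at ZT10. The 6 and 6 did not overlap, and the nearest 2 values were 198 and 196. Of these 3, its log2 fold change moved least when replicate 3 was left out, from 0.18 (SE 0.0401, adjusted p 0.719) to 0.17 (SE 0.0326, adjusted p 0.0478).

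**Figure D1:**
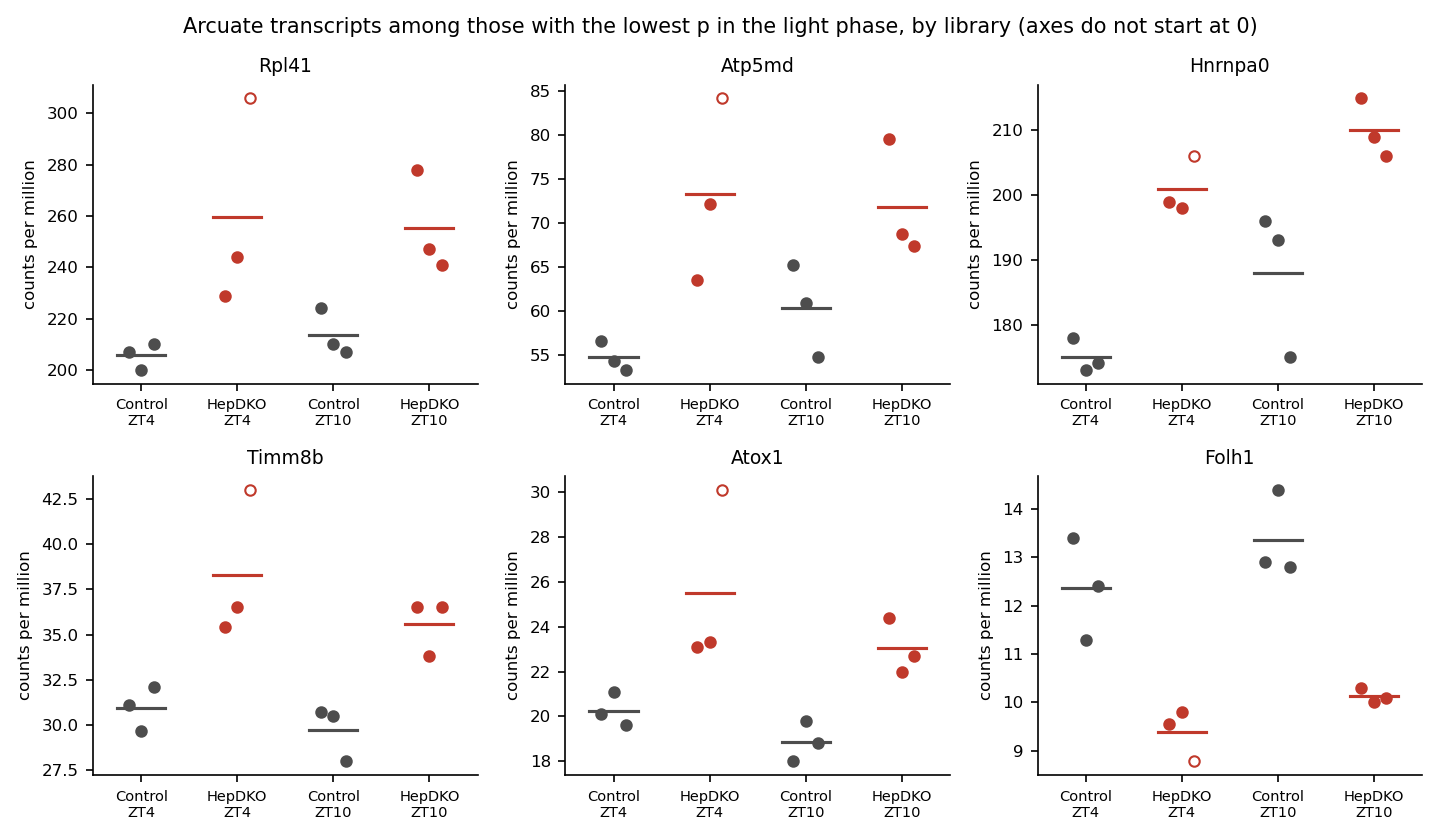
CPM of 6 genes in each of the 12 libraries, by genotype and time point. Bars are means of 3 pooled libraries and the open circle is HepDKO ZT4 replicate 3; for Rpl41 all HepDKO libraries lie at or above 229 and all Control libraries at or below 224, and for Folh1 the order is the opposite.

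The other genes with the lowest p among those higher in HepDKO did not pass edgeR's test in either fit. Timm8b (chromosome 9, 50603910-50605320, plus strand) encodes a chaperone of mitochondrial protein import. It had 33.8 to 43 CPM in HepDKO (median 36.5) and 28 to 32.1 in Control (median 30.6), with no overlap, a log2 fold change of 0.28 and an adjusted p of 0.678, or 0.0846 without replicate 3. Atox1, a copper chaperone, had 22 to 30.1 CPM in HepDKO (median 23.2) and 18 to 21.1 in Control (median 19.7), with a log2 fold change of 0.31. Snhg8, a host transcript of a small nucleolar RNA, had 15.9 to 20.2 CPM in HepDKO (median 17.2) and 10.5 to 15.8 in Control (median 12.6), with a log2 fold change of 0.46. Ttc9b and Doc2a, the latter a calcium sensor of neurotransmitter release, had log2 fold changes of 0.23 and 0.18, and in each the genotypes did not overlap. Mir6236 had the largest log2 fold change of these 10, 0.89, with 24.9 to 53.3 CPM in HepDKO and 14.1 to 24.4 in Control. That symbol is counted here with ribosomal and nuclear RNA symbols, whose summed level ran from 38500 to 95000 CPM in HepDKO and from 67500 to 98700 in Control, and its value is uncertain as a measure of a microRNA. Without replicate 3 the surrogate variable fit passed Timm8b (adjusted p 0.0165), Snhg8 (0.0117), Doc2a (0.0494) and Mir6236 (0.0377), and limma with quality weights passed Timm8b (0.0486).

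Stretches before the start of 5 ribosomal and mitochondrial genes are shown because members of those groups were high together, and these genes have a printable window. Timm8b belongs to neither list and is shown for its low p. They are RefSeq promoter windows (GRCm38.p6), cut to bases outside every GENCODE exon and printed 5′ to 3′ on the gene's strand. Capitals mark the ETS core CCGGAAG (Timm8b), the E-box CACGTG (Rpl13a) and the TATA letters TATAAA (in Atp5md as TTTATA, on the other strand), searched on both strands together with the NRF1 site. Timm8b lies on the plus strand at chr9:50603813-50603900. The others lie on the minus strand: Rpl41 at chr10:128549306-128549418, Rpl13a at chr7:45128762-45128961, Atp5md at chr19:47090648-47090767 and Cox6b1 at chr7:30626152-30626351. Counted from the RefSeq start, those of Rpl41, Rpl13a and Cox6b1 end 137, 16 and 37 bases before it and those of Atp5md and Timm8b end at it, and RefSeq starts can differ from the GENCODE positions given here.
Rpl41: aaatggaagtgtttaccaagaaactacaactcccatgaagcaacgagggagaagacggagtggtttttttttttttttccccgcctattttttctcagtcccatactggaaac
Rpl13a: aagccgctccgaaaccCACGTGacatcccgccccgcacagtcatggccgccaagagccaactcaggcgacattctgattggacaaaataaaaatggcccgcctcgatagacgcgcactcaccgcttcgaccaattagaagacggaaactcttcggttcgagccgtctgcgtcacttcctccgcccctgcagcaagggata
Atp5md: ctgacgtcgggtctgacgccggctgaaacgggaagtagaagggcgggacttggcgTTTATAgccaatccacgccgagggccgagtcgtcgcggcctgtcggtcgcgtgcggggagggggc
Cox6b1: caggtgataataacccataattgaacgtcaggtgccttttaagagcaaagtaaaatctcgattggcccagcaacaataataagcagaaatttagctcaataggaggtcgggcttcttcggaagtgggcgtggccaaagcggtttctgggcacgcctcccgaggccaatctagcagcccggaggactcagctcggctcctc
Timm8b: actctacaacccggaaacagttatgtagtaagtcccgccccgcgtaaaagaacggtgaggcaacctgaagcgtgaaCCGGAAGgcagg

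Across the 250 bases before the start, CCGGAAG was present in 30.9% of ribosomal protein genes (17 of 55 with a RefSeq window) and 18.2% of oxidative phosphorylation genes (12 of 66). The share was 13.5% over the 12485 tested genes with a window and 2.6% over ion channel genes. CACGTG was present in 7.27% and 9.09% of ribosomal and OXPHOS genes and 9.44% of all, and TATAAA in 5.45%, 9.09% and 8.28%. The NRF1 site was present in 6.06%, 0% and 1.67% of OXPHOS, ribosomal and all genes. Of the printed stretches only that of Timm8b holds CCGGAAG, and such matches of letters are not measured binding sites.

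Folh1 had the lowest p of any gene in the comparison and was lower in HepDKO. It encodes glutamate carboxypeptidase II, which in brain cleaves N-acetylaspartylglutamate (chromosome 7, 86718977-86775943, minus strand). HepDKO libraries had 9.56, 9.81 and 8.78 CPM at ZT4 and 10.3, 10.0 and 10.1 at ZT10, and Control libraries had 13.4, 11.3 and 12.4, then 12.9, 14.4 and 12.8. All 6 HepDKO libraries were below all 6 Control libraries, as for 19 genes in all (0.12%), and replicate 3 was the lowest. The log2 fold change was -0.40 (SE 0.0727, unadjusted p 4.9e-05, adjusted p 0.678), and -0.38 (SE 0.0811, adjusted p 0.0903) without replicate 3, when the surrogate variable fit passed it (adjusted p 0.0299). In the dark phase (ZT16 and ZT22) it was -0.24 with an unadjusted p of 0.0282.

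The other genes with the lowest p among those lower in HepDKO were of mixed kinds, and none passed edgeR's test with 12 libraries or without replicate 3. Dubr, a long noncoding RNA, had 2.63 to 3.11 CPM in HepDKO and 3.47 to 4.83 in Control, a log2 fold change of -0.49. Usp43, a deubiquitinase, had the most negative value, -0.84, at 0.654 to 1.01 against 1.26 to 2.47 CPM. Dock10, a guanine nucleotide exchange factor, had 58.0 to 68.2 against 67.3 to 79.7 CPM and a value of -0.21. Map3k7, the kinase TAK1 of cytokine signalling, had 70.3 to 80.2 against 80.6 to 87.5 CPM and a value of -0.14. Cdr1 had 18.4 to 26.9 against 24.3 to 32.5 CPM and a value of -0.33, but the strand setting of the counts is not given, so its own reads and those of the circular RNA from the opposite strand cannot be told apart. Cdr1 passed edgeR without both HepDKO ZT4 replicate 3 and HepDKO ZT10 replicate 3 (-0.47, adjusted p 0.0018), and, without the first alone, limma with quality weights (adjusted p 0.0469) and the surrogate variable fit (0.0494). Dock10 passed the last of these (0.025). The values of Gm14305, Prdm11, C130046K22Rik and Nwd1 were -0.30, -0.19, -0.27 and -0.16. Over all genes, 134 had HepDKO above Control at both times (0.843%) and 53 below (0.334%).

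Genes for the nuclear-encoded subunits of oxidative phosphorylation (OXPHOS), which build the respiratory chain and ATP synthase, were the group with most members higher in HepDKO beside the ribosomal proteins. Of 81 tested, 35 were higher at an unadjusted p under 0.05 and 0 lower, against a background of 4.44% and 2.13% of all genes, and none passed edgeR's adjusted test with 12 libraries. Values lay above 0 for 79 of 81, with a median log2 fold change of 0.13, where all genes had a median of -0.0037 and 48.7% above 0. Without replicate 3 the median was 0.078, 31 were higher (background 4.16%) and 75 lay above 0, where 49.2% of all genes did. In 13 of them HepDKO lay above Control at both times (0.843% of all genes). Ndufa1, a subunit of complex I, had 41.0, 37.5 and 50.5 CPM in HepDKO at ZT4 and 42.4, 38.6 and 35.8 at ZT10, against 30.0 to 34.5 in Control. Its lowest HepDKO library was thus above the highest Control library, with a log2 fold change of 0.31 (adjusted p 0.719; 0.0906 without replicate 3). It passed the surrogate variable fit without replicate 3 (adjusted p 0.00706) and edgeR without it and HepDKO ZT10 replicate 3 (0.022). Cox6b1, a subunit of cytochrome c oxidase, had 126 to 160 CPM in HepDKO, all above the highest Control library, and a median of 118 in Control, with a log2 fold change of 0.22 (adjusted p 0.719). Without replicate 3 it passed DESeq2 (adjusted p 0.00487), the surrogate variable fit (0.00723) and limma with quality weights (0.0456), and not edgeR (0.0846).

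Of 76 cytosolic ribosomal protein genes tested, 40 were higher at an unadjusted p under 0.05 and 0 lower (background 4.44% and 2.13%), and 74 of 76 values lay above 0 (48.7% of all genes). The median was 0.14 with 12 libraries and 0.089 without replicate 3, when 37 were higher (background 4.16%). Rpl13a had 205 to 275 CPM in HepDKO (median 221) and 178 to 206 in Control (median 186), so that a HepDKO library fell just inside the Control range. Rpl32 had 106 to 145 CPM in HepDKO and 94.7 to 117 in Control, also with overlap. Their log2 fold changes were both 0.28, with adjusted p-values of 0.719, and without replicate 3 they were 0.22 and 0.21, with adjusted p-values of 0.198. Without replicate 3, Rpl13a passed DESeq2 (adjusted p 0.00464) and the surrogate variable fit (0.00723), and without it and HepDKO ZT10 replicate 3 edgeR (0.022). Rpl32 passed DESeq2 (0.0192) and the surrogate variable fit (0.0345) without replicate 3. Proteasome subunits, which degrade proteins tagged with ubiquitin, had 4 of 33 higher, 0 lower (background 4.44% and 2.13%) and a median of 0.058, or 0.037 without replicate 3. Psmb5, a catalytic subunit, had 25.7 to 36.2 CPM in HepDKO and 21.5 to 27.4 in Control.

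**Figure D2:**
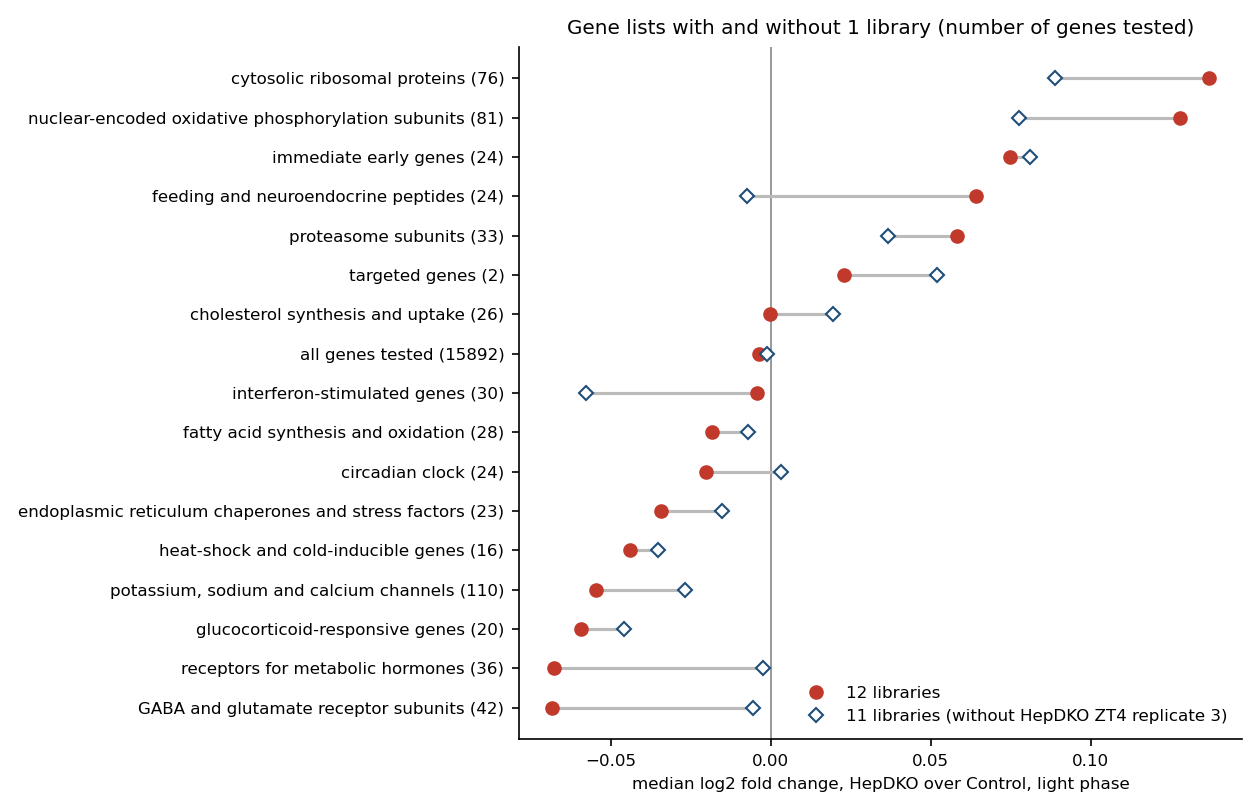
Light-phase median log2 fold change, HepDKO over Control, for each gene list and for all genes, with 12 libraries (filled circles) and without HepDKO ZT4 replicate 3 (open diamonds). Ribosomal and OXPHOS genes have the highest medians with 12 libraries, 0.14 and 0.13, then 0.089 and 0.078 beside 0.081 for immediate early genes, while those of the GABA and glutamate receptors move from -0.068 to -0.0056.

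By library, OXPHOS genes summed to 8900 to 10700 CPM in HepDKO and 8430 to 9210 in Control, and ribosomal protein genes to 14800 to 18300 and 14000 to 15700. The mean log2 level of the OXPHOS list, relative to the Control mean at the same time, was 0.11, 0.10 and 0.38 in HepDKO at ZT4 and 0.16, 0.0072 and 0.027 at ZT10. Control libraries lay between -0.061 and 0.055. At ZT4 all 3 HepDKO libraries were above Control, and at ZT10 only replicate 1 was. For ribosomal proteins the HepDKO levels were 0.051, 0.12 and 0.37 at ZT4 and 0.21, 0.052 and 0.023 at ZT10, with Control between -0.038 and 0.063. Replicate 3 at ZT4 was the highest in both lists, and replicate 1 at ZT10 was the next. The list medians by time were 0.20 at ZT4 and 0.056 at ZT10 for OXPHOS, and 0.17 and 0.093 for ribosomal proteins. Left without replicate 3, the ZT4 medians were 0.095 and 0.061.

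**Figure D3:**
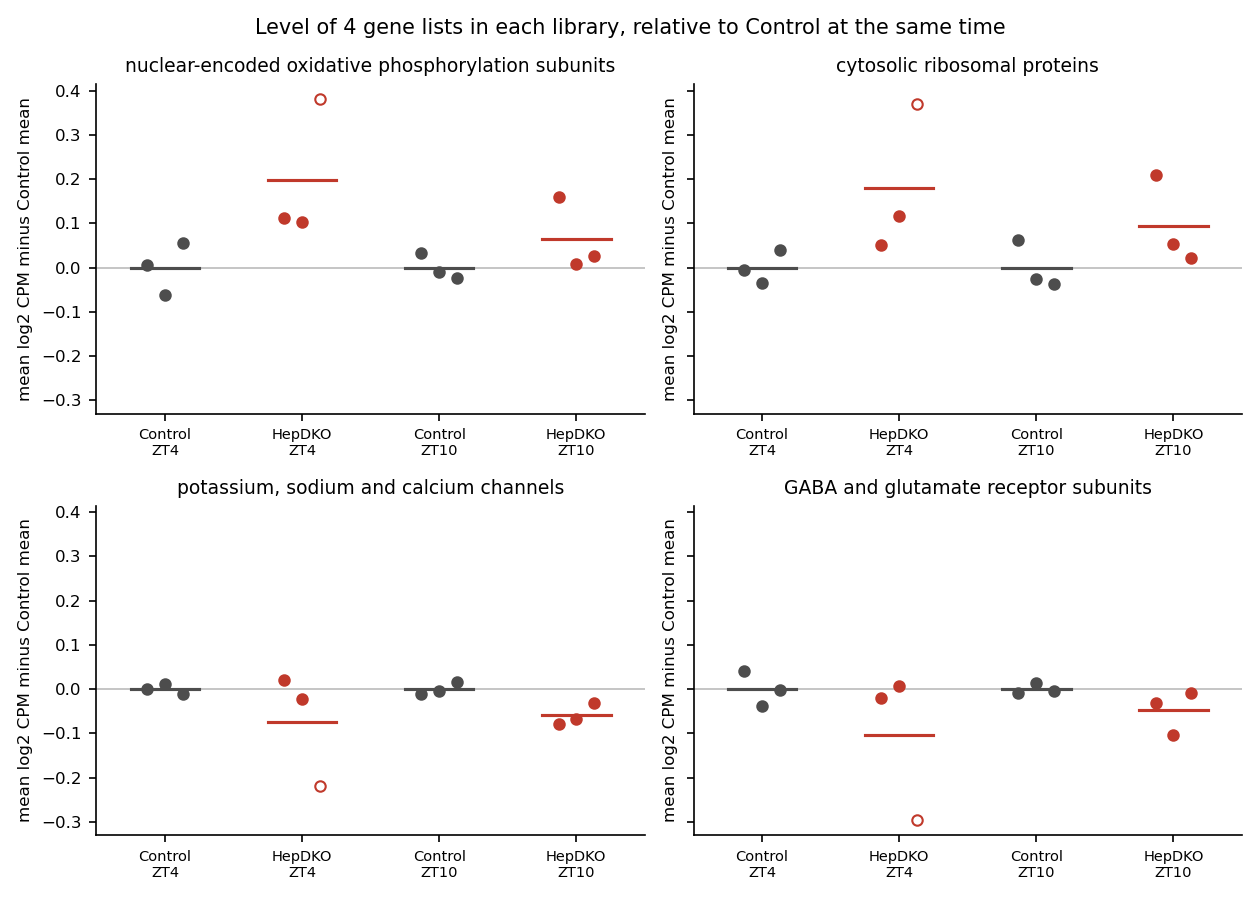
Mean log2 CPM of 4 gene lists in each library minus the Control mean at the same time point; bars are means of 3 libraries and the open circle is HepDKO ZT4 replicate 3. That library lies at 0.38 and 0.37 for OXPHOS and ribosomal genes and at -0.22 and -0.30 for channels and receptors, farther from 0 than any other.

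Values followed transcript length over all genes, and the OXPHOS and ribosomal lists are made of short transcripts. Their median longest annotated transcripts were 1000 and 1050 bases, against 3340 over all genes tested. Among the 766 tested genes with transcripts under 1000 bases the median log2 fold change was 0.12 and 19.2% were higher at an unadjusted p under 0.05. Among the 904 of 8000 bases or more the median was -0.084, with 0% higher and 5.97% lower. The trend was smaller without replicate 3, at 0.068 and -0.037. Short transcripts outside the OXPHOS, ribosomal, channel and GABA and glutamate receptor lists, 694 genes, had a median of 0.10 and 14.7% higher. The 38 short OXPHOS genes had 0.17 and 60.5%, and the 34 short ribosomal protein genes 0.17 and 64.7%. When each library's trend on length was removed, the OXPHOS median was 0.036 with 12 libraries and 0.021 without replicate 3, and the ribosomal median was 0.037 and 0.028. Among named genes, that removal with 12 libraries took Cox6b1 from 0.22 to 0.078, Timm8b from 0.28 to 0.12, Ndufa1 from 0.31 to 0.14, Atox1 from 0.31 to 0.15, Rpl41 from 0.30 to 0.16, Rpl32 from 0.28 to 0.16, Rpl13a from 0.28 to 0.18 and Psmb5 from 0.25 to 0.14. Of the lower genes, Prdm11 went from -0.19 to -0.090, Nwd1 from -0.16 to -0.064 and Map3k7 from -0.14 to -0.093, while C130046K22Rik, a short transcript, went from -0.27 to -0.40. Pomc went from 0.19 to 0.078, Cartpt from 0.14 to 0.060, Pmch from 0.20 to 0.073, Ghrh from 0.25 to 0.091 and Fabp3 from 0.13 to 0.010. No gene passed the adjusted test then in either fit, and 754 (4.83%) and 804 genes (5.11%) had an unadjusted p under 0.05. Of the genes that rose without replicate 3, Hnrnpa0 and Rpl41 had length-adjusted values of 0.16 and 0.15 in the 11 libraries, and Atp5md had no length under its symbol.

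**Figure D4:**
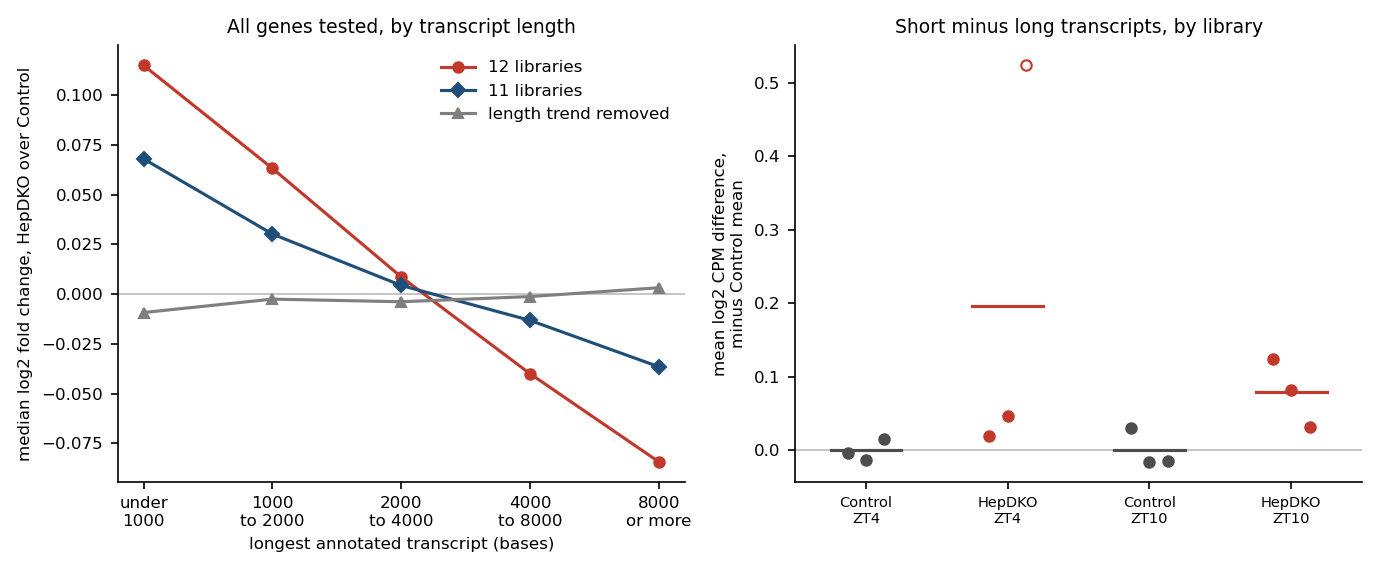
Left, median log2 fold change of HepDKO over Control by length of the longest annotated transcript, with 12 libraries, without HepDKO ZT4 replicate 3, and with each library's length trend removed; right, mean log2 CPM of transcripts under 1000 bases minus that of transcripts of 4000 bases or more, relative to Control at the same time. The medians fall from 0.12 to -0.084 with 12 libraries, and on the right HepDKO ZT4 replicate 3 lies at 0.52, the other HepDKO libraries at 0.020 to 0.12 and Control at -0.016 to 0.030.

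Channel and receptor genes had medians below 0. Of 110 potassium, sodium and calcium channel genes, 0 were higher and 5 lower at an unadjusted p under 0.05 (background 4.44% and 2.13%), and 32 values lay above 0. The median was -0.055, and -0.027 without replicate 3, when 6 were lower and 1, Kcnj11 (named after its values were seen), higher (background 2.58% and 4.16%). Their transcripts are long (median 4330 bases), and with the length trend removed the median was -0.0097, or -0.00072 without replicate 3. Kcnj6, which encodes the GIRK channel subunit GIRK2, had 11.6 to 21.3 CPM in HepDKO (median 16.1) and 17.6 to 21.7 in Control (median 19.8), with overlap and a log2 fold change of -0.27, or -0.18 without replicate 3. Kcnk10, a leak potassium channel, had 10.6 to 14.5 CPM in HepDKO and 13.1 to 16.2 in Control, a value of -0.21. Kcnmb1, a regulatory subunit of the BK channel, had 2.83 to 3.54 against 2.99 to 5.21 CPM, a value of -0.35.

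Subunits of GABA and glutamate receptors, the ion channels and G-protein-coupled receptors of fast and slow transmission, had 0 of 42 higher and 5 lower (background 4.44% and 2.13%), with 11 above 0. Their median of -0.068 became -0.0056 without replicate 3, when 7 were lower (background 2.58%) and 20 lay above 0. With the length trend removed it was -0.027, and 0.011 without replicate 3. Gabra2 had 155 CPM in replicate 3, 189 to 213 in the other HepDKO libraries and 199 to 228 in Control. Grin2b, an NMDA receptor subunit, had 138 to 171 CPM in HepDKO and 154 to 210 in Control, a value of -0.15, or -0.10 without replicate 3. With the length trend removed its value was -0.022, and -0.016 without replicate 3. The lower neuron markers of replicate 3, given above, move with these lists, and their part in the result was not tested.

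None of the feeding peptides passed the adjusted test. Agrp had 12.4, 13.6 and 22 CPM in HepDKO at ZT4 and 14.4, 19.6 and 21.4 at ZT10, and Control libraries had 15.8, 14.6 and 13.3, then 20.1, 16.5 and 15.6. The ranges overlapped, and replicate 3 was the highest of all. Its log2 fold change was 0.11 (SE 0.135, adjusted p 0.824), and -0.020 (SE 0.0985, adjusted p 0.99) without replicate 3. Npy, made in the same neurons, had 37.9, 34.3 and 61.1 CPM in HepDKO at ZT4 and 41.9, 47.7 and 50.1 at ZT10, against 36.0 to 46.8 in Control. Its value was 0.14 (SE 0.114, adjusted p 0.758) and 0.0015 (SE 0.0554) without replicate 3. Pomc, the precursor of the satiety peptide alpha-MSH, had 62.0 to 111 CPM in HepDKO and 48.8 to 95 in Control, a value of 0.19 (SE 0.184, adjusted p 0.787), and 0.049 (SE 0.187, adjusted p 0.988) without replicate 3. The spread of Pomc within genotypes was wide, so only a larger difference could have been seen. Cartpt, the precursor of the satiety peptide CART, had 104 to 133 CPM in HepDKO (median 112) and 95.2 to 109 in Control (median 106). Its value was 0.14 (SE 0.059, unadjusted p 0.0265, adjusted p 0.737) and 0.11 without replicate 3.

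Of 24 feeding and neuroendocrine peptide genes tested, 1 was higher at an unadjusted p under 0.05, which was Cartpt, and 0 lower, near the background of 4.44% and 2.13% of all genes. Their median was 0.064 and became -0.0075 without replicate 3. At ZT4 alone 0 were higher and 2 lower (background 5.49% and 3.73%), and 0 and 0 without replicate 3. At ZT10 alone 4 were higher and 0 lower (background 1.12% and 1.35%). Of the 24, 18 lay above 0 at ZT10, where 7850 of 15892 genes did, and no member passed the adjusted test at either time. Pmch, the precursor of melanin-concentrating hormone of the neighbouring lateral hypothalamus, had 140.0, 125 and 158 CPM in HepDKO at ZT10 against 107, 121 and 98.8 in Control, and at ZT4 its ranges overlapped. Ghrh, which drives growth hormone release, had 7.08 to 13.7 CPM in HepDKO and 7.47 to 9.77 in Control. Of 36 receptors for metabolic hormones tested, 1 was higher and 1 lower, also near the background. The lower one was Igf1r, the receptor of insulin-like growth factor, with 60.4 to 69.0 CPM in HepDKO (median 62.9) and 67.3 to 74.8 in Control (median 71.6), which overlapped, a value of -0.16 (SE 0.0499, unadjusted p 0.00548, adjusted p 0.732). Without replicate 3 its adjusted p was 0.301 by edgeR and 0.0402 in the surrogate variable fit, and with the length trend removed its value was -0.060 (unadjusted p 0.308). The higher one was Ramp1, a partner of the calcitonin-family receptors, with 39.0 to 51.4 CPM in HepDKO and 38.1 to 42.7 in Control, a value of 0.14.

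The targeted genes were measured in a tissue where Cre was not directed. Nr1d1 had 67.8, 57.1 and 60.2 CPM in HepDKO at ZT4 and 60.6, 61.2 and 55.4 at ZT10, and Control libraries had 55.5, 61.3 and 50.0, then 55.9, 53.4 and 56.5. The ranges overlapped, with a log2 fold change of 0.12 (SE 0.0579, unadjusted p 0.0489, adjusted p 0.737). Nr1d1 overlaps the end of Thra on the other strand (chromosome 11, 98767932-98775333 against 98740638-98769006), and Thra itself had 434 to 465 CPM in HepDKO and 417 to 445 in Control. Nr1d2 had 99.2 to 142 CPM in HepDKO and 115 to 157 in Control, a value of -0.078 (SE 0.07, adjusted p 0.774), or -0.027 without replicate 3. At ZT4 its value was -0.052, and 0.064 without that library. Of 24 circadian clock genes, 2 were higher at an unadjusted p under 0.05, Nr1d1 and Bhlhe41, and 0 were lower (background 4.44% and 2.13%). Bhlhe41, a repressor of clock output, had 63.7 to 76.0 CPM in HepDKO and 52.2 to 71.7 in Control. Dbp, a clock-driven activator, had 31.4 to 52.4 and 25.2 to 46.9 CPM. The list median was -0.020 with 12 libraries and 0.0034 without replicate 3, close to that of all genes.

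Immediate early genes, transcribed soon after neurons are active, had 1 of 24 higher and 0 lower (background 4.44% and 2.13%), with 20 values above 0 and a median of 0.075. Without replicate 3 the count was 3 of 24 higher (background 4.16%) and the median 0.081. Leaving out 1 library moved the median between 0.014 (without HepDKO ZT10 replicate 1, whose level was 0.32 above the Control mean) and 0.15 (without Control ZT4 replicate 2), and it was 0.023 without Control ZT4 replicate 3 and 0.043 without Control ZT10 replicate 1. Jund had 183 to 222 CPM in HepDKO and 160.0 to 186 in Control, a value of 0.20 (SE 0.0515, adjusted p 0.719; 0.101 without replicate 3). Without replicate 3 it passed DESeq2 (adjusted p 0.0191) and the surrogate variable fit (0.00363), and without it and HepDKO ZT10 replicate 3 edgeR (0.022). Fos, Egr1 and Arc, widely used activity markers named here outside the rule for named genes, had values of 0.11, 0.039 and -0.053. Cholesterol synthesis and uptake genes had 1 of 26 higher, which was Nsdhl with 24.8 to 35.6 CPM in HepDKO and 25.2 to 29.5 in Control. Fatty acid genes had 1 of 28 higher, Fabp3 at a value of 0.13, and 1 lower, Ppara at -0.29. Interferon-stimulated genes had 0 of 30 higher and 1 lower, Oas1a. Neither heat-shock and cold-inducible genes (16 tested) nor endoplasmic reticulum chaperones and stress factors (23 tested) had a member at an unadjusted p under 0.05 in either direction. The medians of these 5 lists lay between -0.044 and -0.00036. Across 27 alternative fits the interferon median ran from -0.079 to 0.067 and the cholesterol median from -0.012 to 0.026. The fatty acid median ran from -0.039 to 0.0039, while those of the heat-shock and endoplasmic reticulum lists stayed below 0.

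Within the light phase, the genotype difference at ZT4 and at ZT10 was also tested for each time and for the change between them. By edgeR, 0 of 15892 genes passed at ZT4 (0%; 1465 at an unadjusted p under 0.05, 9.22%), 0 at ZT10 (0%; 393, 2.47%) and 0 for the difference between the times (0%; 637, 4.01%). DESeq2 passed 1 gene at ZT4, Met, and 4 for the difference, Chrna6, Grip2, Ly6c1 and Syt7. The gene with the lowest p at ZT4 was Met, the receptor of hepatocyte growth factor, with 2.48, 2.83 and 1.79 CPM in HepDKO and 5.77, 5.93 and 3.74 in Control, a log2 fold change of -1.12. At ZT10 its ranges were 3.89 to 4.36 and 3.68 to 4.41. The groups were apart at ZT4 and overlapped at ZT10.

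Grip2, a scaffold protein of AMPA receptors at synapses, had the lowest p both at ZT10 and for the difference between times. HepDKO libraries had 47.3, 46.3 and 48.3 CPM at ZT4 and 32.3, 33.5 and 31.3 at ZT10, while Control had 41.0, 38.6 and 42.8, then 41.1, 38.0 and 43.7. HepDKO was thus above all Control libraries at ZT4 and below all of them at ZT10. The ZT4 minus ZT10 difference of log2 fold changes was 0.55 (adjusted p 0.603). Such a crossing, above at ZT4 and below at ZT10, was present in 52 genes of 15892 (0.327%), and the reverse in 33 (0.208%). Syt7, a calcium sensor of vesicle release, had 146, 140 and 140 CPM in HepDKO at ZT4 and 108, 108 and 117 at ZT10. In Control it had 120 to 124 and 121 to 125. Kcnj4, an inward rectifier potassium channel chosen after its values were seen, had 10.8, 9.05 and 10.3 CPM in HepDKO at ZT4 and 8.42, 7.03 and 5.59 at ZT10, with 6.09 to 6.99 and 8.41 to 10.7 in Control. Among channel genes, 14 of 110 reached an unadjusted p of 0.05 for that difference, 10 of them with the higher value at ZT4 (background 4.01%, with 2.52% higher and 1.49% lower).

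Glucocorticoid-responsive genes, which carry the daily corticosterone signal into brain tissue, had the largest median difference between the times of the lists compared, 0.34. At ZT4, 7 of 20 were higher in HepDKO and 0 lower at an unadjusted p under 0.05 (background 5.49% and 3.73%), with 16 above 0 and a median of 0.20. At ZT10, 0 were higher and 5 lower (background 1.12% and 1.35%), with 2 above 0 and a median of -0.19. For the difference between times, 8 of 20 were positive and 0 negative (background 2.52% and 1.49%), though no member passed the adjusted test. The mean level of the list, relative to Control at the same time, was 0.19, 0.26 and 0.20 in HepDKO at ZT4 and -0.24, -0.21 and -0.26 at ZT10. Control libraries lay between -0.047 and 0.035 at ZT4 and between -0.11 and 0.067 at ZT10. HepDKO was outside the Control range at both times, on opposite sides, and replicate 3 lay between the other 2 libraries at ZT4. The ZT4 median without replicate 3 was 0.19.

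Members showed how the time points differed within each genotype. Sgk1, a kinase induced by corticosteroids, had 60.4, 56.9 and 47.5 CPM in Control at ZT4 and 79.3, 71.9 and 80.2 at ZT10. In HepDKO it had 78.1, 54.1 and 54.0, then 58.5, 55.2 and 59.9. Control was higher at ZT10 than at ZT4 without overlap, and HepDKO ranges overlapped between the times. Tsc22d3, also called GILZ, had 87.1, 86.8 and 79.7 CPM in Control at ZT4 and 128, 107 and 115 at ZT10, against 88.0 to 89.3 and 93.4 to 109 in HepDKO. Arrdc2 had 11.7, 9.99 and 9.52 CPM in Control at ZT4 and 17.8, 13.0 and 14.6 at ZT10, and in HepDKO 13.6, 12.2 and 17.9, then 11.4, 11.1 and 11.1. It was the member whose HepDKO libraries all lay above Control at ZT4 and all below Control at ZT10, with a difference of 0.92 (SE 0.212, adjusted p 0.76). Mt2, a metallothionein, had 84.1 to 120 CPM in HepDKO at ZT4 against 70.0 to 83.0 in Control, and 91.4 to 105 against 94.9 to 121 at ZT10. Fkbp5, a co-chaperone of the glucocorticoid receptor, had overlapping ranges at both times, with values of -0.064 and -0.21. These 5 were chosen after their values were seen.

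**Figure D5:**
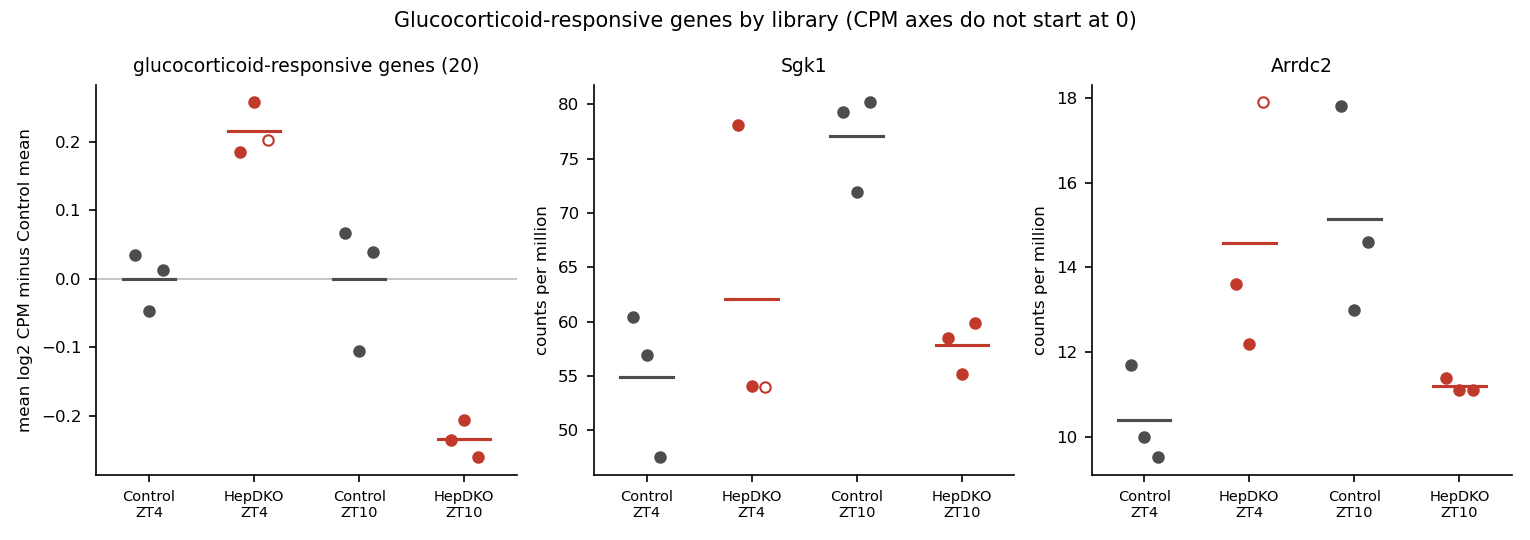
Left, mean log2 CPM of 20 glucocorticoid-responsive genes in each library minus the Control mean at the same time; middle and right, CPM of Sgk1 and Arrdc2. Bars are means of 3 libraries and the open circle is HepDKO ZT4 replicate 3; the list lies at 0.19 to 0.26 in HepDKO at ZT4 and at -0.26 to -0.21 at ZT10.

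Markers of endothelial, meningeal and oligodendrocyte cells had medians above 0 at ZT4 and below 0 at ZT10. The level of the endothelial and pericyte markers in HepDKO, relative to Control, was 0.063, 0.10 and 0.090 at ZT4 and -0.11, -0.13 and -0.21 at ZT10, with Control at -0.065 to 0.10 and -0.16 to 0.16. The marker ranges overlapped at both times except that the lowest HepDKO library at ZT10 lay below Control. In 11 tested endothelial markers the median log2 fold change was 0.035 at ZT4 and -0.16 at ZT10, and the summed level was 328 to 382 CPM in HepDKO and 342 to 416 in Control. Medians of the 8 meningeal and fibroblast markers were 0.089 and -0.20, with levels of -0.086 to 0.17 in HepDKO at ZT4 and -0.30 to -0.079 at ZT10, against -0.24 to 0.29 and -0.22 to 0.38 in Control. Medians of the 10 oligodendrocyte markers were 0.11 (0.0032 without replicate 3) and -0.097, with levels of -0.040 to 0.28 and -0.32 to 0.084 in HepDKO, against -0.092 to 0.048 and -0.050 to 0.053 in Control. The part of these markers in the result was not tested.

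The light-phase difference was set against that of the dark phase in 12 separate arcuate libraries at ZT16 and ZT22. By edgeR, 0 of 16102 genes passed for the difference between phases (0%; 594 at an unadjusted p under 0.05, 3.69%, with 2.07% positive and 1.62% negative), and 0 of 15734 passed in the dark phase alone (0%; 765, 4.86%). The lowest p was that of 1700112J16Rik, a long intergenic noncoding RNA, with 2.73 to 4.85 CPM in HepDKO and 2.32 to 2.96 in Control in the light phase. Its log2 fold change was 0.57 in the light phase and -0.65 in the dark, and the difference, 1.23, had an adjusted p of 0.134. Rpl41, Atp5md and Hnrnpa0 had dark-phase values of 0.064, 0.11 and 0.075, each positive and none past an unadjusted p of 0.05. The OXPHOS and ribosomal medians were 0.033 and 0.020 in the dark phase, and 77 of 81 and 74 of 76 members had a higher value in the light phase, where 8045 of 15892 genes did. Those light values include replicate 3, without which the light medians were 0.078 and 0.089. For glucocorticoid-responsive genes the dark-phase median was -0.35, with 8 of 20 lower (background 2.55%) and 0 higher (background 2.31%), and the light minus dark value was above 0 in 20 of 20. For immediate early genes the dark-phase median was -0.13 with 6 of 24 lower. Pomc had a light-phase value of 0.19 (0.049 without replicate 3) and a dark-phase value of -0.45, a difference of 0.64 with an unadjusted p of 0.0326. Of the 24 feeding and neuroendocrine peptides, 4 were positive and 0 negative for the difference between phases at an unadjusted p under 0.05 (background 2.07% and 1.62%). No member of the peptide list passed the adjusted test.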

How the data were processed

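Values are raw read counts per gene for 25229 symbols, deposited by the authors as 1 table of 48 libraries. Per the submitters' processing notes, FastQC 0.11.7, Trim Galore 0.6.10 and STAR 2.7.10b were used with genome build mm10; the counting tool, strand setting and annotation are not given in the sources used here. Reads shared by near-identical copies or overlapping genes could therefore be assigned in ways that cannot be checked, and mitochondrially encoded symbols were not analysed here. Libraries held 15994399 to 20399718 counts, and a floor of 3 counts limits low genes; it covers counting error only.

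Genes were kept with filterByExpr on the 4 groups, scaled by TMM and tested with edgeR 4.0.16 (robust quasi-likelihood, R 4.3.3) with time point as a covariate and Benjamini-Hochberg adjustment at 0.05. In all, 6 tests were run across all genes. Alternatives used DESeq2 1.42.0, limma 3.58.1 with sample quality weights, 1 surrogate variable (sva 3.50.0), other scalings and filters, a replicate block, left-out libraries, and removal of each library's lowess trend (span 0.3) on the longest GENCODE transcript. The length trend and some combinations without libraries were added after seeing the data. List levels are mean log2 CPM with a prior count of 1. Positions are from GENCODE (GRCm38, the same assembly as mm10) or, for Atp5md, RefSeq.

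Genes were named by rule: the targeted genes, Agrp, Npy, Pomc and Cartpt, the 10 lowest p in each direction, the lowest p of each other test, 3 members per list, and any called gene; genes that this rule names but the text does not are not reported here. The comparison, members and lists were chosen with earlier results of these data known. No libraries of a group were duplicates: chi-square over degrees of freedom between them was 3.04 or more.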

Additional observations from a re-analysis of the deposited data

Results flagged for a closer look

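Glucocorticoid-responsive genes drew attention because the genotype difference had opposite signs at the 2 light-phase times, which were measured in separate libraries. The mean level of the 20 genes, HepDKO minus Control, was higher at ZT4 than at ZT10 by 0.45 on the log2 scale. All 3 HepDKO libraries lay above the Control mean at ZT4 and all 3 below it at ZT10. This difference of the list level was not tested, and no single member passed the adjusted test of the difference between times.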

How the results depend on the processing

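Against 0 genes for the light-phase genotype effect in arcuate, DESeq2 passed 7, limma with quality weights 1 and a surrogate variable 1. Leaving out 1 library gave 0 to 4, with 4 only without HepDKO ZT4 replicate 3. Without that library DESeq2 passed 38, limma with quality weights 13 and the surrogate variable 54, and without both that library and HepDKO ZT10 replicate 3 edgeR passed 15. The 38 of DESeq2 were adjusted over fewer genes than its 7, because its filter on mean counts removed many. At ZT4, DESeq2 and limma with quality weights each passed 1 gene. For ZT4 against ZT10, DESeq2 passed 4, limma 1 and the surrogate variable 1. For light against dark, DESeq2 passed 1, and leaving out 1 library gave 0 to 1, with 1 without HepDKO ZT4 replicate 1 or without HepDKO ZT16 replicate 3. The replicate block passed 0 genes, with 1181 at an unadjusted p under 0.05; same-numbered libraries correlated at -0.0279 to 0.0705 and share only a number. Agrp changed sign to -0.018 (limma), -0.033 (surrogate variable) and -0.029 (length trend removed), and, without replicate 3, to -0.020 (edgeR), -0.023 (DESeq2), -0.047 (surrogate variable), -0.029 (limma) and -0.098 (length trend removed), and to -0.095 without both libraries. Npy changed sign to -0.011 (surrogate variable) and -0.024 (length trend removed), and, without replicate 3, to -0.000928 (DESeq2), -0.0097 (surrogate variable), -0.012 (limma) and -0.092 (length trend removed), and to -0.037 without both. Pomc changed to -0.0088 and Ifi27 to -0.0039 with the length trend removed without replicate 3, and Pomc to -0.069 without both. With the length trend removed, the proteasome median was 0.0103, and without replicate 3 it was 0.00777, with 0.0207 for OXPHOS and 0.0276 for ribosomal genes. Of 1887 values of single genes, 1816 kept direction and side of the threshold, 52 newly passed it and 19 changed sign; the cause was not tested. Leaving out 1 library gave -0.020 to 0.18 for Agrp, 0.0015 to 0.20 for Npy and 0.049 to 0.32 for Pomc.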

Other observations

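Markers of the pars tuberalis, the part of the pituitary that adjoins the arcuate nucleus, were above 0 in 8 of the 8 tested of 11 listed, with 2 higher at an unadjusted p under 0.05 and 0 lower, where 48.7% of all genes lay above 0, 4.44% were higher and 2.13% lower. Without HepDKO ZT4 replicate 3, whose level was 0.58 above the Control mean, 6 lay above 0 and 1 was higher (49.2% and 4.16% of all genes). Their median log2 fold change was 0.21, and 0.13 without HepDKO ZT4 replicate 3. Their summed level was 365 to 488 CPM in HepDKO and 332 to 382 in Control, with overlap. Oligodendrocyte markers lay 0.28 above the Control mean in HepDKO ZT4 replicate 3, and the level was -0.32 in HepDKO ZT10 replicate 3. Of 5 red blood cell genes listed only Alas2 was tested, at 1.27 to 2.7 CPM over the 12 libraries.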
